A study of Mus musculus with 9 samples.

Results

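The 36 genes described here are imprinted in the mouse, and they were listed by name, not by a threshold on a measured value. They were looked up in a list of 17164 accessible regions, each assigned to 1 gene, and 21 of the 36 had at least 1 region, with 35 regions in all. The regions came from ATAC-Seq, in which the Tn5 transposase cuts and tags open DNA, on hearts and pharyngeal mesoderm dissected from mouse embryos with 6 somites, at embryonic day 8.75. The study made 3 libraries each from wt embryos (the control), from Isl1-/- embryos, which lack the LIM-homeodomain factor Isl1, and from Isl1Cre+/-/ Brg1fl/fl embryos, in which Cre from the Isl1 locus removes the chromatin remodeler Brg1 in cells that express Isl1. The list holds the regions common to the 3 wt libraries, in mm9 coordinates. The mutant libraries were not analysed here. For each region it gives the position, the assigned gene and how far the midpoint is from a transcription start of that gene. It holds no heights and no values for single libraries. No value below therefore has a replicate error or a test, the depth is unknown, and a gene with no region is not shown to be closed. Of 8 genes of cardiac and pharyngeal mesoderm, 5 had a region (Isl1, Tbx20, Gata4, Mef2c and Hand2) and Tbx1, Nkx2-5 and Tbx5 had none. Of 8 genes of neural, endodermal, endothelial and erythroid cells, 5 also had one (Pax6, Foxa2, Sox17, Kdr and Tek), and both counts are near the share over all coding genes given below, so they neither bear out nor go against the labelled tissue.

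Imprinted genes are expressed mainly from the copy inherited from 1 parent. Most lie in clusters under an imprinting control region, which carries DNA methylation from the egg or the sperm on 1 parental copy and stays unmethylated on the other. The KRAB zinc finger protein ZFP57 binds methylated copies of such regions and recruits TRIM28 and SETDB1, while CTCF binds the unmethylated copy of the region upstream of H19. Many of these genes act on growth of the embryo and placenta, among them the growth factor Igf2 and the growth inhibitors Cdkn1c, Grb10 and Phlda2. The deposited regions were not split by allele, so a region may be open on either parental copy or on both.

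Of 4 motifs searched on both strands, some matches are shown in stretches from 6 of the regions. Capitals mark the ZFP57 hexamer TGCCGC in the first 4 stretches, the YY1 core GCCATNTT in the fifth and the NRF1 core GCGCANGC in the sixth. A match on the minus strand is printed as its reverse complement. Each stretch is 200 bases of the plus strand of mm9, outside annotated exons. Snrpn is shown because no region in the list had more hexamers in its central 1000 bp, Grb10 and Mcts2 for their hexamers at a promoter, Meg3 for the tandem copies around its hexamer, and Peg3 and Zrsr1 because no region had more YY1 or NRF1 cores in its central 1000 bp. The Peg3 stretch itself lies outside those central bases and holds 3 further cores. A hexamer at a promoter is common. It was in the central 1000 bp of 52.6% of all regions within 1 kb of a start and of 40% of the members'.
Snrpn (chr7:67149578-67149777): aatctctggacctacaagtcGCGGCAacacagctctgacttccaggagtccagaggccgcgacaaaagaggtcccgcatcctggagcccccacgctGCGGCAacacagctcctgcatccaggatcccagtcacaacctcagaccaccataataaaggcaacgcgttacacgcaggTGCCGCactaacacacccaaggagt
Grb10 (chr11:11936837-11937036): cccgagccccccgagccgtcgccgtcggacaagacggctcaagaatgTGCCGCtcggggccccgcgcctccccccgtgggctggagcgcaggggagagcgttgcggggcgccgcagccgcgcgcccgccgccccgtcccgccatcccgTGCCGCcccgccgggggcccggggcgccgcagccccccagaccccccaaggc
Mcts2 (chr2:152512525-152512724): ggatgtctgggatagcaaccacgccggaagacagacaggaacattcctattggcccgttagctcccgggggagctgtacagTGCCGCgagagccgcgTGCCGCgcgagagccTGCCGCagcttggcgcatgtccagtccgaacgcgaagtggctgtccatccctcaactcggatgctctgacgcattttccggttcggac
Meg3 (chr12:110765721-110765920): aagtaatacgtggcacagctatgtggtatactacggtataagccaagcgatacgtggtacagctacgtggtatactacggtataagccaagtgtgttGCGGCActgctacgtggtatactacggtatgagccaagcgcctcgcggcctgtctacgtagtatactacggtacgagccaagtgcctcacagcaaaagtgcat
Peg3 (chr7:6680529-6680728): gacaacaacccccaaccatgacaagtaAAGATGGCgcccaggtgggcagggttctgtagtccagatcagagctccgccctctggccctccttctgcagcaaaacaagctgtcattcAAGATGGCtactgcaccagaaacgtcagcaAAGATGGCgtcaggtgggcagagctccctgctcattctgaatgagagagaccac
Zrsr1 (chr11:22872333-22872532): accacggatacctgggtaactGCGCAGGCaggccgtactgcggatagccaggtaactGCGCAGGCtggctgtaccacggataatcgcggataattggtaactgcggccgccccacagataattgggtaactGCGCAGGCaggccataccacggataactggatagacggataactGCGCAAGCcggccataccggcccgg
A match is a string of letters and not evidence that the factor was bound.

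Of the 30 protein-coding members, 18 (60%) had an assigned region, against 49.3% of the 21027 coding genes that have a curated transcript in RefSeq. A region with its midpoint within 1 kb of the assigned start was found for 14 of the 30, against 40.6% of the same genes. Since each region was given to 1 gene only, the starts annotated by GENCODE were also searched for any region within 1 kb, whatever its assigned gene. By that count 17 of the 30 coding members had an open start, against 45.2% of 22215 coding genes. All 3 shares were above their background, by a few genes, and the difference was not tested. Of the 6 noncoding members, 3 had a region (H19, Meg3 and Kcnq1ot1) and 3 had none (Airn, Rian and Mirg), against 25.2% of 3328 noncoding genes. Among the 21 members with a region, 9 had 2 or more, against 26.8% of the 11541 genes with a region. Of these 9, Snrpn, Peg10 and Ube3a counted only through distal regions rich in sequence repeated in the genome, described below. The background share was not recomputed without such regions.

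**Figure D1:**
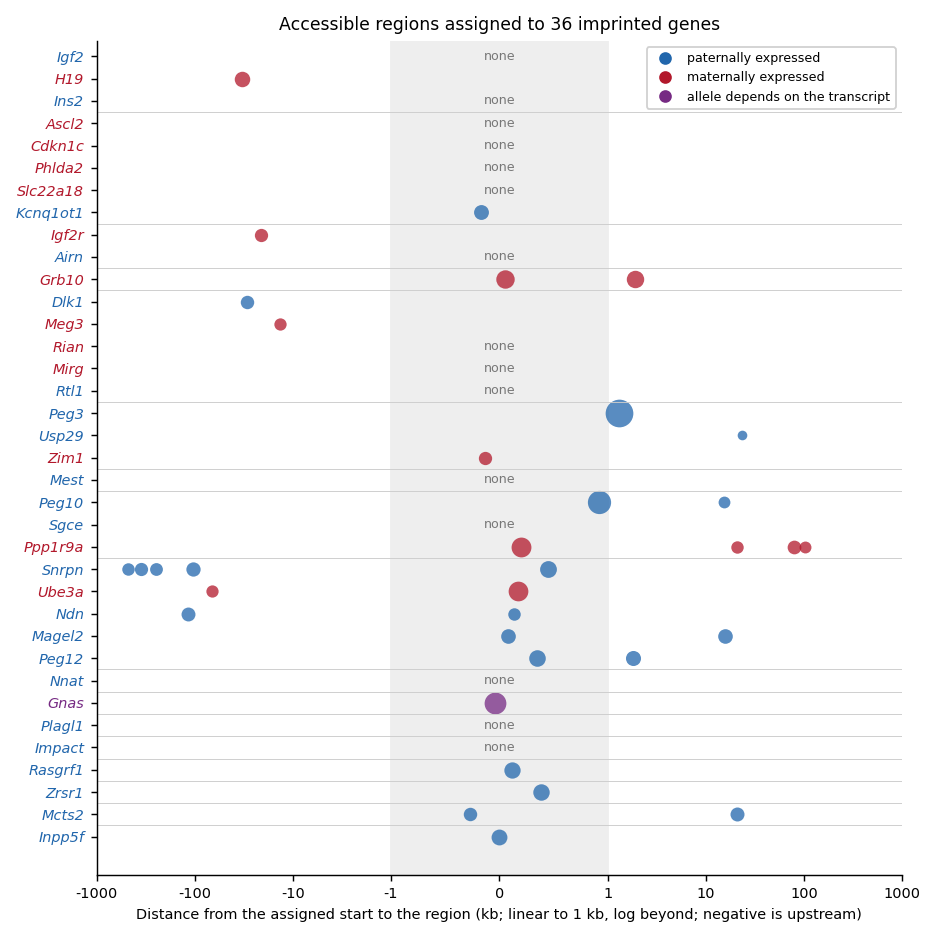
Signed distance from the start used in the deposited list to the midpoint of each of the 35 regions (x axis, kb, linear to 1 kb and logarithmic beyond) for the 36 genes, grouped by cluster. Point area grows with region width, color gives the expressed allele, the grey band marks 1 kb, and 15 genes have no region; the Snrpn row reaches 482526 bp upstream.

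The regions had about the same width and CpG content as the whole list when all 35 were pooled. Their median width was 1126 bp (range 514 to 4240 bp), and that of all 17164 regions was 1123 bp. Median CpG content was 3.47 dinucleotides per 100 bp for the members and 3.83 for all regions. Within 1 kb of a start the members' median width was 1494 bp against 1294 bp for all such regions, with a CpG content of 5.91 against 5.93. Beyond 1 kb the widths were 984 and 950 bp and the CpG contents 1.95 and 1.35. Of the 35, 15 (42.9%) lay within 1 kb of the assigned start, 3 (8.57%) from 1 to 10 kb, 11 (31.4%) from 10 to 100 kb and 6 (17.1%) beyond. The same classes held 52.9%, 7.81%, 24.4% and 14.9% of all regions. The members' regions differed more in internal repetition. A median of 3.74% of their bases lay in a 12-base word that recurred in the same region and strand, against 1.36% over all regions, and within 1 kb of a start the medians were 5.18% and 1.55%. With words of 20 bases both medians were 0.

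**Figure D2:**
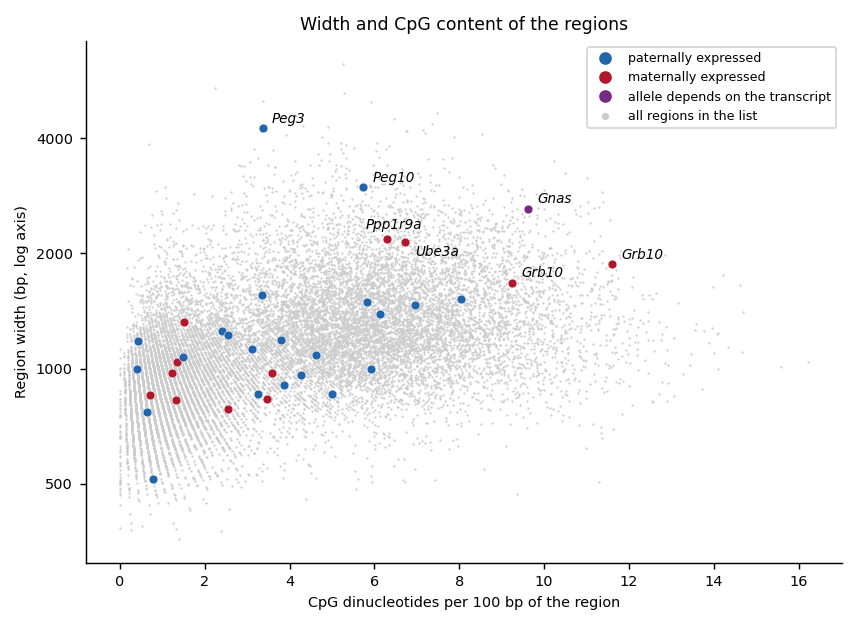
Width (log axis, bp) against CpG dinucleotides per 100 bp for all 17164 regions (grey) and the 35 regions of imprinted genes (colored by expressed allele). Peg3 (4240 bp) and Peg10 (2978 bp) lie near the top of the cloud, and the 2 Grb10 regions and Gnas lie far to the CpG-rich side.

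By expressed allele, 13 of 22 paternally expressed members had a region and 10 of them had one within 1 kb of the assigned start. Of 13 maternally expressed members, 7 had a region and 4 had one within 1 kb. An open annotated start was found for 12 of the 21 annotated paternally expressed members and for 4 of 13 maternally expressed ones (Grb10, Zim1, Ppp1r9a and Ube3a). Usp29 counts as not open by its GENCODE start, though its RefSeq start fell inside the Peg3 region. The shares over coding genes were 49.3% with a region, 40.6% with one within 1 kb and 45.2% with an open annotated start. Gnas, whose expressed allele depends on the transcript, had 1 region. Members with a start in a region methylated on the maternal copy from the oocyte had a region in 10 of 16 cases, and the others in 11 of 20. These counts are small, the genes of a cluster share their control region and are not independent, and the difference between the classes was not tested.

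The Snrpn cluster, the mouse counterpart of the Prader-Willi and Angelman region, was open at every member. All 5 had a region within 1 kb of the assigned start, and the cluster held 13 of the 35 regions. It is also long. With 50 kb on each side it spans 3.23 Mb and held 14 regions of any gene. That is 4.34 per Mb, below the 6.5 per Mb over the genome. At Snrpn, a component of spliceosomal snRNPs, the start region was 1558 bp wide (chr7:67148819-67150376), with its midpoint 445 bp into the gene. It held 10 ZFP57 hexamers, 9 of them in its central 1000 bp, the highest number of any of the 17164 regions. The first 8 matches were spaced 63 to 179 bp apart, as the stretch printed above shows for 3 of them. Its CpG content of 3.34 per 100 bp was close to the median of the whole list. It was low beside all regions within 1 kb of a start, whose median was 5.93 and lower quartile 4.5. Ube3a, a ubiquitin ligase expressed from the maternal copy in neurons and from both copies in many other cells, had a 2147 bp region over its start (chr7:66483223-66485369). Ndn (860 bp, midpoint at 134 bp), Magel2 (1187 bp, at 84 bp) and Peg12 (1519 bp, at 347 bp), all intronless and paternally expressed, were open at their starts as well. Peg12 had a second, neighboring region of 1252 bp at 1813 bp. Mkrn3, another paternally expressed gene between them, had a region of 1953 bp at 55 bp from its start.

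Snrpn also had the most regions of any member, 5, but the other 4 were far upstream. Their deposited distances of 104110, 251111, 352260 and 482526 bp run from the other annotated start of Snrpn, at position 67285105, which lies upstream of the start region. They resembled each other in sequence. Any pair of the 4 shared 139 to 359 words of 20 bases on the same strand, while the Snrpn start region shared none with them. From 29.6% to 55% of the 31-base words in these 4 regions occurred more than once in the genome. The methods state no filter on mapping quality, so reads from 1 copy may have been placed on another, and the part of this in these 4 calls was not tested. Across all members 8 of 35 regions had over 20% of such repeated words, against 4.86% of 17164 regions, and all 8 lay more than 1 kb from a start. Besides the 4 at Snrpn they were the only region of Dlk1 (27.5%), the distal regions of Peg10 (21.9%) and Ube3a (29.4%) and 1 of the intronic regions of Ppp1r9a (39.8%). Without these 8 regions, 20 members had a region in place of 21, the loss being Dlk1.

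The Peg3 cluster was the other one with a region at each member. Peg3, a zinc finger protein of the paternal copy, had the widest region of all members, 4240 bp (chr7:6679705-6683944), wider than 99.9% of the list. Its midpoint lay 1306 bp inside the gene, and so it was not counted within 1 kb, but it contained 2 of the 3 annotated Peg3 starts toward its upstream end and its midpoint fell in an intron. Along this region stood 12 YY1 cores, each on the minus strand, the strand of Peg3 transcription. Another 8 ZFP57 hexamers stood on both strands, mostly on the side of the start. In the central 1000 bp the region had 4 YY1 cores, a number that 6 regions of the list reached and none exceeded. Zim1, a maternally expressed zinc finger gene, had a 974 bp region at its start. Usp29, which is paternally expressed and is known to share the control region with Peg3, had by symbol only a narrow region of 514 bp. The midpoint of this narrow region lay 23053 bp into the gene by the RefSeq start. By that distance the RefSeq start of Usp29 itself fell inside the Peg3 region. The single GENCODE model of Usp29 is short and begins far from the RefSeq start, so its gap of 46635 bp to a region applies to that model alone.

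**Figure D3:**
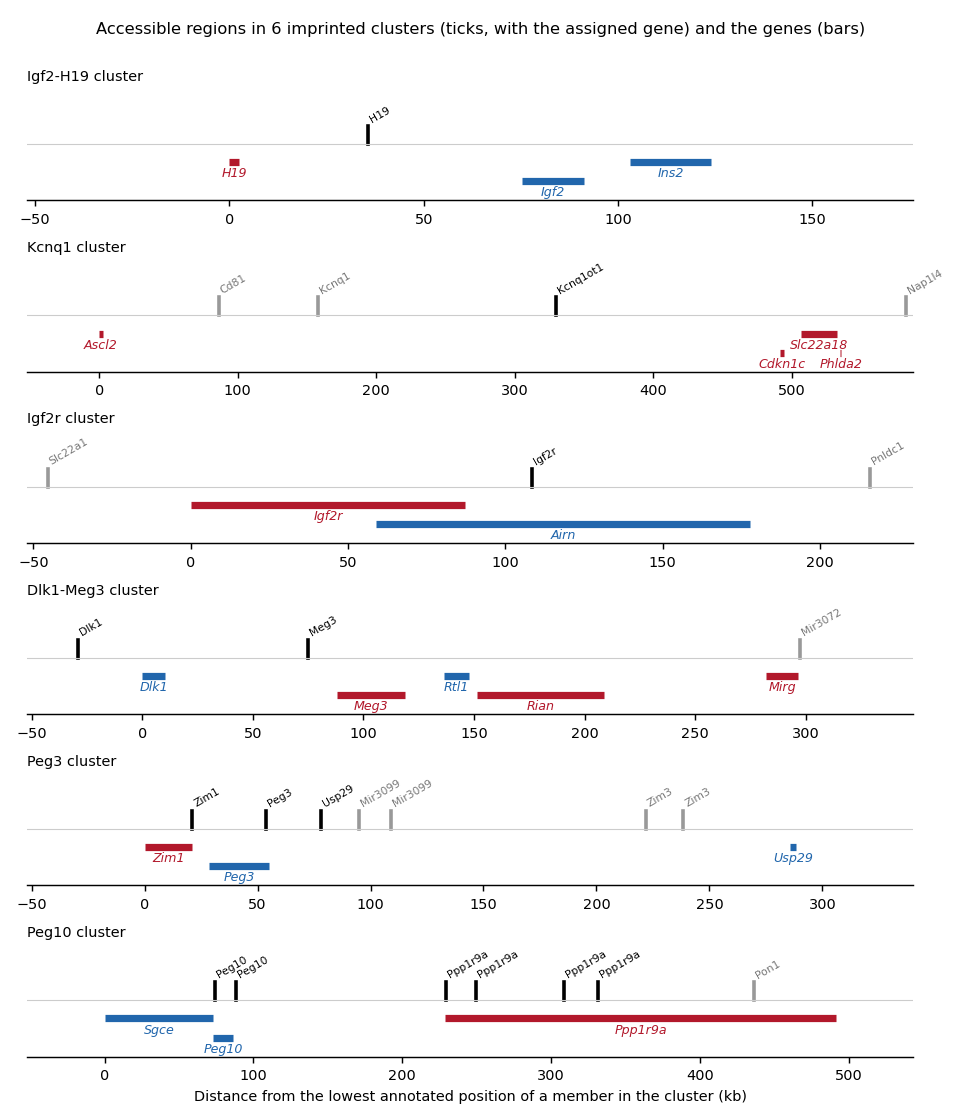
Accessible regions (ticks, with the assigned gene; black for members) and annotated genes (bars; blue paternally, red maternally expressed) in 6 clusters, with distance in kb from the lowest annotated position of a member and 50 kb on each side. Ticks sit over the starts of Zim1, Peg3, Peg10 and Ppp1r9a, while the Igf2-H19 cluster has a single tick between its genes.

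In the Peg10 cluster 1 wide region covered the starts of 2 genes that run in opposite directions. The region of 2978 bp (chr6:4696731-4699708) was assigned to Peg10, a gene derived from a retrotransposon that is required for the placenta. It also contained 6 of the 8 annotated starts of Sgce, which encodes epsilon-sarcoglycan and had no region by symbol. Ppp1r9a, which encodes the actin-binding protein neurabin and is maternally expressed in placenta, had 4 regions, second only to Snrpn. Its start region was 2174 bp wide (chr6:4852429-4854602), with 7 matches to the CTCF core CGNGGNGGC, and 6 of them fell in the central 1000 bp, where 12 regions of the list had more. The letters of this core occur often in CpG-rich promoters, and 47% of all regions within 1 kb of a start held it. The other 3 regions of Ppp1r9a, at 20613, 79631 and 102452 bp, lay in its introns and were 783 to 1040 bp wide.

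The distal part of chromosome 7 presented a different picture. In the Igf2-H19 cluster none of the 3 genes had a region near a start. A single region of 1326 bp (chr7:149796433-149797758) was found in the 50 kb around the cluster and between its genes. It was assigned to the noncoding RNA H19 at 33044 bp upstream, lay between H19 and Igf2, and held none of the 4 motifs. The nearest annotated start of Igf2 was 45613 bp from it and that of Ins2, an insulin gene, was 67680 bp away. The stretch just upstream of H19, where the control region bound by CTCF is known to lie, contained no region of the list. In the Kcnq1 cluster the paternally expressed noncoding RNA Kcnq1ot1, which silences its neighbors, was the only one of 5 members with a region. This region of 1221 bp (chr7:150482007-150483227) lay in an intron of Kcnq1 with its midpoint 165 bp upstream of the start, and held none of the 4 motifs. Ascl2, a factor of trophoblast, Cdkn1c, an inhibitor of cyclin-dependent kinases, Phlda2 and the transporter gene Slc22a18 had none. For these 4 the closest region to a start was 82975, 87166, 45675 and 73115 bp away. In the same stretch Cd81 and Nap1l4 had regions at their own starts (342 and 72 bp), and Kcnq1 had a region in the gene, at 17229 bp.

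Igf2r, the receptor that clears Igf2, and Dlk1, a Notch ligand family member, were likewise not open at their starts. The Igf2r region of 973 bp (chr17:12983104-12984076) lay 21018 bp upstream, inside the antisense transcript Airn. The nearest start of Airn, an internal one at position 13008797, was 24721 bp from it. The other annotated starts of Airn, at positions 12934177 to 12934264, were 48840 to 48927 bp from it. In the Dlk1-Meg3 cluster the only regions assigned to members were distal. The one of Dlk1 lay 29131 bp upstream. The one of Meg3, a maternally expressed noncoding RNA, was 835 bp wide (chr12:110765465-110766299) and lay 13324 bp upstream of it. The interval between these genes is known to hold the control region of the cluster, and whether this region overlapped it was not tested. Of its bases, 10.8% lay in repeated 12-base words. The repeated unit can be read in the printed Meg3 stretch, and 0% of the region's 31-base words occurred more than once in the genome. Rian, Mirg and Rtl1, further along the cluster, had no region, with 75856, 11838 and 72241 bp from a start to the nearest one. For Mirg this was a region of 1036 bp assigned to Mir3072 (chr12:110987828-110988863). It lay just past the annotated end of Mirg at position 110987665.

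Of the members that stand alone, 6 of 10 had a region and 4 had none by symbol. Grb10, an adaptor protein that restrains insulin and growth signaling, had 2, over separate groups of starts. The outer region (1874 bp, chr11:11936436-11938309) covered the start of the assigned transcript, and the upstream promoter is known for use on the maternal copy in most tissues. The inner one (1677 bp, chr11:11925239-11926915), covered 2 further starts, and downstream starts of Grb10 are known for paternal expression in neurons. Its deposited distance of 1897 bp runs from the annotated start at position 11927974, and not from the start under the outer region. Both held 4 ZFP57 hexamers, a number that 241 regions of the list reached in the central 1000 bp and 72 exceeded. With 11.6 and 9.24 CpG per 100 bp the 2 Grb10 regions were richer than 99.3% and 95.1% of the list. At Gnas, which encodes the stimulatory G protein alpha subunit, a region of 2618 bp (chr2:174154221-174156838) contained 4 of 16 annotated starts. A further 4 starts lay within 1 kb upstream of it, at 697 to 990 bp. The 3 most upstream starts, in the part of the locus known for the Nesp transcript, were 9605 to 10643 bp from the nearest region. That region, of 1341 bp, was assigned to the antisense transcript Nespas, and the next annotated start of Gnas, at position 174123360, lay 1556 bp from it. Inpp5f, an inositol phosphatase gene, was open at its main starts (1389 bp, chr7:135754180-135755568). The internal start at position 135832003, in the part of the gene known for its imprinted variant, was 55881 bp from a region. Rasgrf1, an exchange factor for Ras, had a region of 1466 bp at its start (chr9:89803997-89805462).

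Zrsr1, Mcts2 and Nnat are paternally expressed genes that lie within introns of host genes. At Zrsr1, an RNA-binding splicing factor gene within Commd1, the region of 1494 bp (chr11:22871638-22873131) lay over the assigned start and reached to 84 bp from the GENCODE start. The region also contained 1 GENCODE start of Commd1. It held 14 NRF1 cores, 13 on the plus strand and spaced 36 to 162 bp apart, as the printed stretch shows for 4 of them, and 37.9% of its bases lay in repeated 12-base words. The last match, on the minus strand, overlapped the one before it. Of the 17164 regions, only that of Sdf4 equaled its 12 cores in the central 1000 bp and none had more. At Mcts2, a translation factor gene within H13, the region of 998 bp (chr2:152512113-152513110) covered the start and held 3 ZFP57 hexamers at spacings of 16 and 15 bp. A second region assigned to Mcts2, of 1083 bp at 20681 bp, lay in a UTR exon of H13. Nnat, within Blcap, had no region, and the nearest one began 4967 bp beyond its closest start. The host genes Commd1, H13 and Blcap each had a region at their own starts, at 9, 80 and 199 bp.

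**Figure D4:**
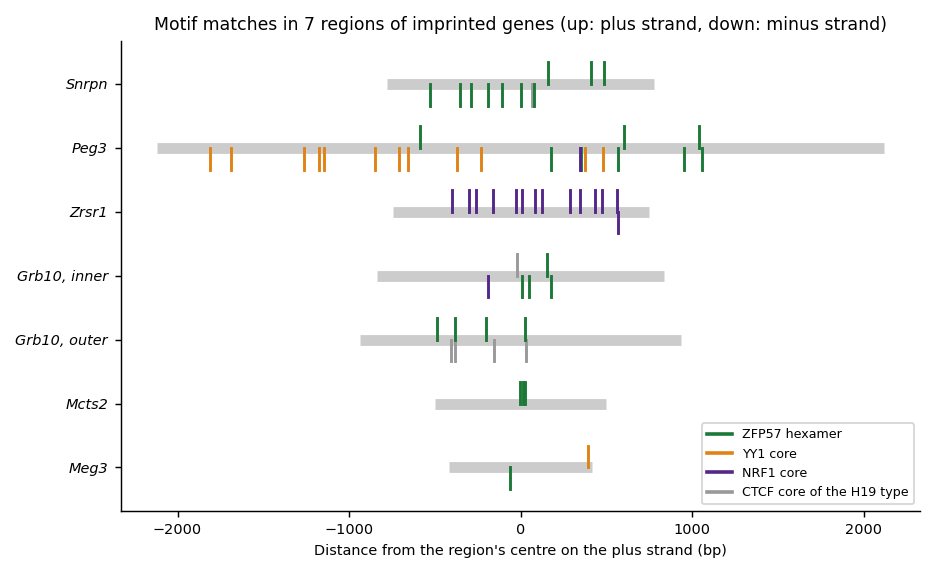
Matches to 4 motifs in 7 regions of imprinted genes, against distance in bp from the region's centre (grey bar, region; ticks up, plus strand; down, minus strand). ZFP57 hexamers run along the Snrpn region, YY1 cores stand on 1 strand of the Peg3 region, and NRF1 cores recur along the Zrsr1 region.

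Over the 35 regions the shares with a motif depended on the window searched. The window of 1000 bp was fixed around the midpoint, so it ran past the edges of narrower regions. The Meg3 region of 835 bp, for example, held 1 hexamer, and its window held 2. The ZFP57 hexamer was in the central 1000 bp of 34.3% of them and of 36.1% of all regions, the CTCF core in 22.9% and 29.4%, the NRF1 core in 20% and 23.5% and the YY1 core in 25.7% and 15.9%. In the central 300 bp the order turned for 3 of the 4, with 25.7% against 18.3% for the ZFP57 hexamer, 17.1% against 15.5% for the CTCF core and 2.86% against 5.84% for the YY1 core. The NRF1 core stayed lower, with 2.86% against 11.9%. Within 1 kb of a start the YY1 core was in the central 1000 bp of 13.3% of the members' regions and 18.2% of all. For the ZFP57 hexamer these shares were 40% and 52.6%. In the central 1000 bp at least 4 hexamers were found in 3 of the 35 (8.57%), Snrpn and both Grb10 regions, against 1.4% of all regions. The Peg3 region, with 8 hexamers over its whole length, had 2 in that window. These numbers are counts of letters, were not tested, and depend on how many regions of 1 gene were called.

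Members with no region by symbol numbered 15, and 2 of them were open through a neighbor's region. These were Sgce and Plagl1, a zinc finger factor of the paternal copy, whose region of 1002 bp (chr10:12810124-12811125) was assigned to the overlapping noncoding Hymai and contained 8 of its 12 starts. Mest, named as a transcript of mesoderm, was 153780 bp from the nearest region, that of Copg2. Impact, a translational regulator on chromosome 18, was 109366 bp from one, at Osbpl1a. No region at all lay within 50 kb of either gene, whereas each of the other 15 clusters or single genes had at least 1. In all 17 stretches there were 59 regions, 34 of them assigned to members, or 8.19 per Mb. Over the genome there were 6.5 per Mb, but that value covers whole chromosomes, while the stretches were drawn around genes. The 2 are therefore not like measures. Single stretches ranged from 0 per Mb at Mest and Impact to 38.7 at Zrsr1, with 4.34 at the Snrpn cluster.

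The CpG content of a start went with whether a region was found, in members as in other genes. The measure is the number of CpG dinucleotides per 100 bp within 500 bp of a gene's most CpG-rich annotated start. Of 7 members under 2 per 100 bp, none had an open start, and 3.89% of 6997 such coding genes did. From 2 to under 4 per 100 bp, 2 of 4 members had one, and 34.4% of 3012 coding genes did. From 4 to under 6, 4 of 6 members had one, and 66.3% of 3731 coding genes did. Of 18 members with 6 or more, 11 had one, and 73.9% of 8475 coding genes did. From 4 per 100 bp upward the share of members thus rose no further (66.7%, then 61.1%), on small counts. The 7 CpG-rich members without one were Cdkn1c (10.6 per 100 bp), Igf2r (10.7), Igf2 (10.3), Dlk1 (9.89), Phlda2 (7.99), Nnat (7.19) and Mest (6.99). They include 3 maternally and 4 paternally expressed genes. Among the 7 members under 2 per 100 bp, Usp29 was placed by its short GENCODE model, while its RefSeq start fell inside the Peg3 region.

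**Figure D5:**
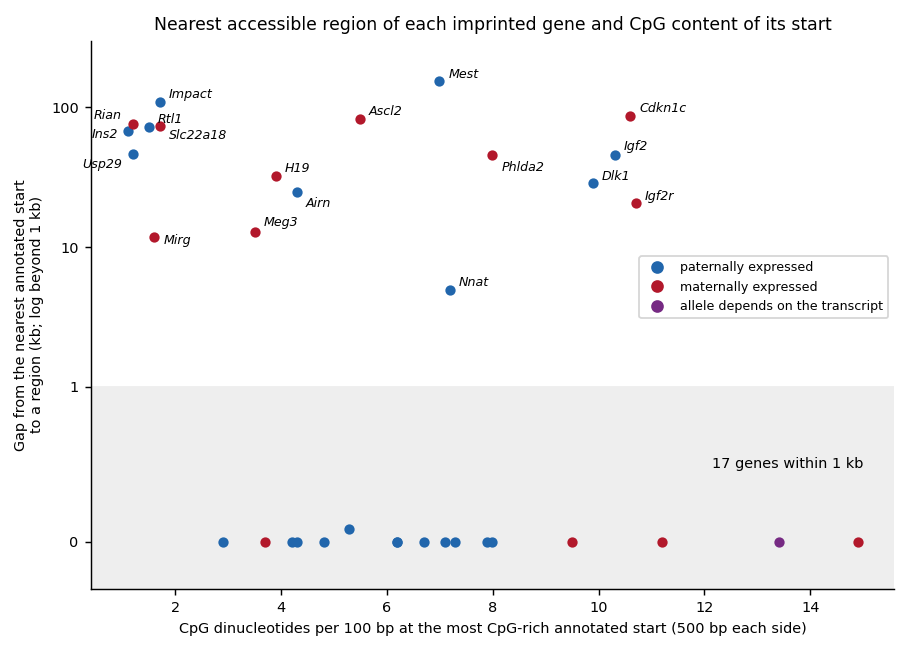
Gap from the nearest annotated start to any region (y axis, kb, linear to 1 kb and logarithmic beyond) against CpG dinucleotides per 100 bp at the most CpG-rich start, for 35 genes colored by expressed allele. The 17 genes in the grey band are within 1 kb, and Cdkn1c, Igf2r, Igf2, Dlk1, Phlda2, Nnat and Mest are CpG-rich genes far above it.

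Further genes of the same pathway were counted from lists. Of 44 other imprinted genes or neighbors of them, 30 had a region and 19 had one within 1 kb, beside 49.3% and 40.6% of coding genes. Some of the 44 are noncoding, and Zfp264, which is not in the gene table used, counts among those without. Those with a region inside the stretches around the members were Kcnq1, Cd81, Nap1l4, Pon1, Ddc, Mkrn3, Blcap, H13, Commd1 and Nespas. The most regions were at Cobl, an actin nucleator next to Grb10 (10 regions), and at Atp10a, a phospholipid transporter next to Ube3a (6). Of 20 genes that set or keep imprints or otherwise act on DNA methylation, 15 had a region and 13 had one within 1 kb of the start. The shares over coding genes are the same 49.3% and 40.6%. They include Zfp57 (1282 bp), Zfp445 (920 bp), Trim28 (2674 bp), Setdb1 (828 bp), Dnmt1, the maintenance methyltransferase (2 regions), and Uhrf1 (1954 bp), which recruits Dnmt1. Tet2, of the enzymes that oxidize methylated cytosine, had the most regions, 6. The 5 with none were Dnmt3b, Dnmt3l, Dppa3, Ctcfl and Ehmt2, of which Dnmt3l, Dppa3 and Ctcfl are known for expression in germ cells or early embryos.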

How the data were processed

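ATAC-Seq of wt embryos (3 libraries) gave 1 deposited list of 17432 rows (17164 distinct regions), and groups came from the genotype labels. According to the methods, the authors aligned paired reads to mm9 with bowtie2, removed duplicates with Picard 1.136, called regions per library with MACS14 using a fixed shift, removed blacklisted regions and kept regions common to the 3 libraries with bedtools 2.15 (overlap of at least 1 bp). No filter on mapping quality and no Tn5 offset are stated. Fixed shifts and depth affect width, and the tool that assigned genes is not given for these regions. The deposited values are positions and distances in bp, a unit other than counts, and 0 columns were left unmapped. Coordinates were read as 1-based.

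Python 3.11.15, numpy 2.4.6 and pandas 2.3.3 were used. Sequence and starts were read from NCBIM37, which is mm9, and its GENCODE annotation, which holds 35 of the 36 members (not Kcnq1ot1), and coding status from RefSeq. No test was made. Members and lists were chosen with earlier results of these data known. Genes described in full were those with a region within 1 kb, the most regions or the widest regions. Classes of CpG content, 20-base words shared between regions, repeated 31-base words, motif counts over whole regions and the choice of printed stretches were added after values had been seen. Counting scripts were tested on simulated data. Alternatives were the distance that counts as near (500, 2000 and 10000 bp), regions as wide as the median or wider, all rows, flanks of 20 and 100 kb, a central 300 bp for motifs and 20-base words.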

Additional observations from a re-analysis of the deposited data

How the results depend on the processing

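Of 36 values recomputed under the alternatives, 28 stayed within 1.5 times the reported one and 8 did not. The background share of genes with a region was 23.1% over all RefSeq genes, which include many predicted and noncoding ones. Maternally expressed members with a region numbered 4 in place of 7 both when any region within 1 kb of an annotated start was counted and when regions as wide as the median or wider were kept. Members without a maternally methylated start numbered 7 and 6 in place of 11 under the same alternatives. The first setting drops distal regions and the second narrow ones by construction. In a shorter search window, the central 300 bp, the YY1 core and the NRF1 core were each in 2.86% of members' regions, beside 5.84% and 11.9% of all regions, so that the YY1 core went from above to below the list. With 20-base words the median repeated share was 0, since longer words recur less often. Leaving out regions with over 20% of repeated 31-base words, an alternative chosen after seeing the data, left 20 members and 27 regions. No paired analysis was possible because the deposited list is a single consensus of the 3 control libraries with no value per library, and for the same reason no library could be left out. Depth is unknown, and how far depth, the calling threshold and the demand for all 3 libraries set which genes lack a region was not tested.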
